A study of Mus musculus with 237 samples.

Results

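Of the 55335 genes in the count table of E14.5 mouse skin cells, 10 Wnt genes were followed across cell states. They were the secreted ligands Wnt3, Wnt4, Wnt5a, Wnt6, Wnt7b, Wnt10a and Wnt16, the ligand carrier Wls, and the feedback genes Axin2 and Nkd1. The genes were chosen by name, with earlier results of these data known. Single cells were taken at E14.5 from fetuses of C57BL/6N background, and the labels list 66 cells of 3 wild-type (WT) embryos and 171 cells of 7 p63 knockout embryos. WT epidermis was first separated from the dermis with dispase and then treated with trypsin, whereas knockout fetuses, edited with CRISPR-Cas9 as zygotes, went into trypsin directly. Dead cells and cells with CD45, TER119 or CD140a were removed by sorting. The authors describe a qPCR screen of the cDNA that chose cells with Krt5 from WT fetuses and cells with Krt8 from knockout fetuses. Preparation and screening therefore differ with genotype. Whether every cell in the table had passed this screen was not tested. CD140a is the product of Pdgfra. The table has 237 columns, each 1 cell, but only 16 could be tied to a labelled cell. These 16 are from embryo WT01 and comprise 11 WT-KCB (basal layer), 1 WT-KCI (intermediate layer) and 4 WT-KCP (labelled K17 high) cells. The genotype and the embryo of the other 221 columns were not used, and no state below is named WT or knockout. The labels place all 45 WT-KCB cells in WT embryos and all 70 cells called mutant fibroblast in 1 knockout embryo. Differences between the states below therefore cannot be told apart from differences in genotype, embryo and preparation.

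Wnt proteins are secreted signals. Wls carries them through the secretory route to the cell surface, where they bind Frizzled receptors together with Lrp5 and Lrp6, which leads to stabilized beta-catenin and to transcription with TCF/LEF factors. Some ligands, with Wnt5a as the usual example, also act through Ror receptors without beta-catenin. Axin2 and Nkd1 are textbook target genes whose products damp the pathway again, so their RNA is widely read as a sign of a cell that has received the signal. In embryonic skin, epidermal Wnt ligands and beta-catenin in the epidermis and the upper dermis are required for the first hair placodes.

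Columns were sorted by keratin and collagen levels in CPM, the count of a gene scaled to a column total of 1000000. A basal column had at least 300 CPM of Krt5 and Krt14 and less than 100 CPM of Krt8. A simple column had at least 100 CPM of Krt8 and Krt18 and less than 100 CPM of Krt5 and Krt14. A mesenchymal column had at least 100 CPM of Col1a1 and Col3a1. There were 54 basal, 66 simple and 79 mesenchymal columns, with 1 column that was both simple and mesenchymal, and 39 columns had no state. Of these 39, 20 had both Krt5 and Krt8 at 100 CPM or more. Column totals ran from 2701500 to 19197138 counts. The 11 WT-KCB and 4 WT-KCP cells all met the basal rule, so the basal state holds Krt17-high cells too, and the WT-KCI cell had no state. Genes that the rule did not use were then checked. In summed CPM, Col17a1, a hemidesmosome collagen, was 689.7 in basal columns and 0.695 in simple columns. The 6 basal markers together, Krt5 and Krt14 included, were not absent from simple columns. Their median was 450.3 CPM there (3.50 to 10640), against 14318 CPM (3883 to 29756) in basal columns. Krt7, a simple epithelial keratin, was 304.9 in simple and 25.2 in basal columns. Pdgfra and Twist2, both of dermal fibroblasts, were 261.1 and 195.5 in mesenchymal columns, with Pdgfra present although cells with its product had been sorted away. Only 1 of the 79 mesenchymal columns had Krt5, Krt14, Krt8 or Krt18 at 100 CPM or more, although the screen described was for Krt5 or Krt8. Pdgfra was 0.333 and Twist2 0 in basal columns. The 8 mesenchymal markers together, Col1a1 and Col3a1 included, still had a median of 502.8 CPM there (2.95 to 2949), mostly Dcn. In mesenchymal columns, where the rule itself sets a minimum for Col1a1 and Col3a1, their median was 72387 CPM (2524 to 131592). The simple state was mixed. The 4 periderm markers Krt17, Krt6a, Krt4 and Gabrp together had a median of 425.2 CPM there (0.141 to 7950), against 80.4 CPM (1.91 to 6348) in basal columns. Of the 66 simple columns, 33 had Col1a1 or Col3a1 at 100 CPM or more. In these 33 columns Col3a1 was 919.3 CPM in sum and Col1a1 only 19.5. Of other cell types, the 3 immune markers were at 0 in basal and mesenchymal columns. In single columns the summed markers of muscle reached 1986 CPM and those of neurons 237.3 CPM in the mesenchymal state, and those of Schwann cells 239.4 CPM and of endothelium 229.9 CPM in the simple state. The median over the columns of a state was 0 for each of these, or 0.913 CPM for muscle in mesenchymal columns.

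All values below describe 1 pool of columns per state, or 1 embryo. There was no replicate and hence no test. Levels are summed CPM with exact 95% Poisson intervals, and shares of columns at 10 CPM or more carry exact 95% binomial (Clopper-Pearson) intervals. The Poisson intervals treat each read as an independent draw, but amplified reads were not collapsed to molecules, so these intervals are too narrow. They also leave out the spread between cells. The binomial intervals treat columns as independent draws. Neither interval covers differences between embryos. A gene was counted as higher or lower when its summed CPM differed at least 2-fold on the log2(CPM + 1) scale.

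The ligands fell into an epithelial set and Wnt5a. Of the 10 genes, 8 were lower in mesenchymal than in basal columns, beside 18.8% of the 16850 genes compared, and 2 were higher, beside 19.6%. The 8 lower genes were Wnt3, Wnt4, Wnt6, Wnt7b, Wnt10a, Wnt16, Wls and Axin2. The higher genes were Wnt5a and Nkd1. The median log2 ratio of the 10 genes was -3.36, and that of all genes compared was -0.21.

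At full depth, Wnt3 separated the basal and mesenchymal states without overlap. Wnt3, on chromosome 11 of GRCm38 from 103774150 to 103817957, encodes a ligand of the beta-catenin branch. Its CPM in the 54 basal columns ran from 0.174 to 615.6 with a median of 129.9, and no read was counted in any of the 79 mesenchymal columns. The ranges did not overlap, which held for no other gene of the 10 in this comparison. How many of all genes compared had no overlap is not given here. The separation hung on the lowest basal columns. With columns thinned to 2500000 counts, 53 of 54 basal columns held a Wnt3 count. The sum in basal columns was 166.1 CPM (164.9 to 167.3), at least 26526-fold higher than the level that 3 counts over all mesenchymal columns would give. At 10 CPM or more were 50 of 54 basal columns, which is 92.6% (82.1% to 97.9%). The 0 of 79 mesenchymal columns has an exact upper bound of 4.56%.

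Wnt7b and Wnt16 were also nearly silent in mesenchymal columns. Wnt7b, on the minus strand of chromosome 15 from 85535437 to 85582473, had a median of 337.5 CPM in basal columns (0 to 1019) and reached at most 0.940 CPM in a mesenchymal column. Its sum was 368.7 CPM (366.9 to 370.4) in basal and 0.0417 CPM (0.0255 to 0.0645) in mesenchymal columns, 8831-fold less. Wnt16, on chromosome 6 from 22288227 to 22298522, was detected in fewer cells. It was at 10 CPM or more in 27 of 54 basal columns, which is 50% (36.1% to 63.9%), with a median of 15 CPM and up to 233.9. Its 79 mesenchymal columns held 2 counts in all, from 1 column, which gives a ratio of 0.000108 to basal columns (1.31e-05 to 0.000391).

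Wnt6 and Wnt10a are neighbours on chromosome 1, Wnt6 from 74771892 to 74785322 and Wnt10a from 74791516 to 74804179, both on the plus strand with 6193 bases between them. Wnt6 was at 10 CPM or more in 52 of 54 basal columns (median 492.7 CPM, 1.22 to 1062) and in 9 of 79 mesenchymal columns (median 0, up to 164.8). The sums were 552 CPM (549.9 to 554.2) and 9.13 CPM (8.87 to 9.41), 60.4-fold apart. Wnt10a, a ligand of skin appendages and teeth, was at 10 CPM or more in 48 of 54 basal columns (median 54.8 CPM, 0.164 to 356.3) and in 4 of 79 mesenchymal columns (median 0, up to 128.4). Its sums of 106.9 and 3.36 CPM differed 31.8-fold. For both neighbours the ranges overlapped through a few mesenchymal columns.

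Wnt4, on chromosome 4 from 137277489 to 137299726, was the least state-bound of the 6 epithelial ligands in this comparison. Basal columns had a median of 54 CPM (0 to 318.4), with 50 of 54 at 10 CPM or more. Mesenchymal columns had a median of 0.375 CPM (0 to 126.7), but 28 of 79 reached 10 CPM, which is 35.4% (25% to 47%). The sums, 73.1 and 16.3 CPM, differed 4.48-fold.

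**Figure D1:**
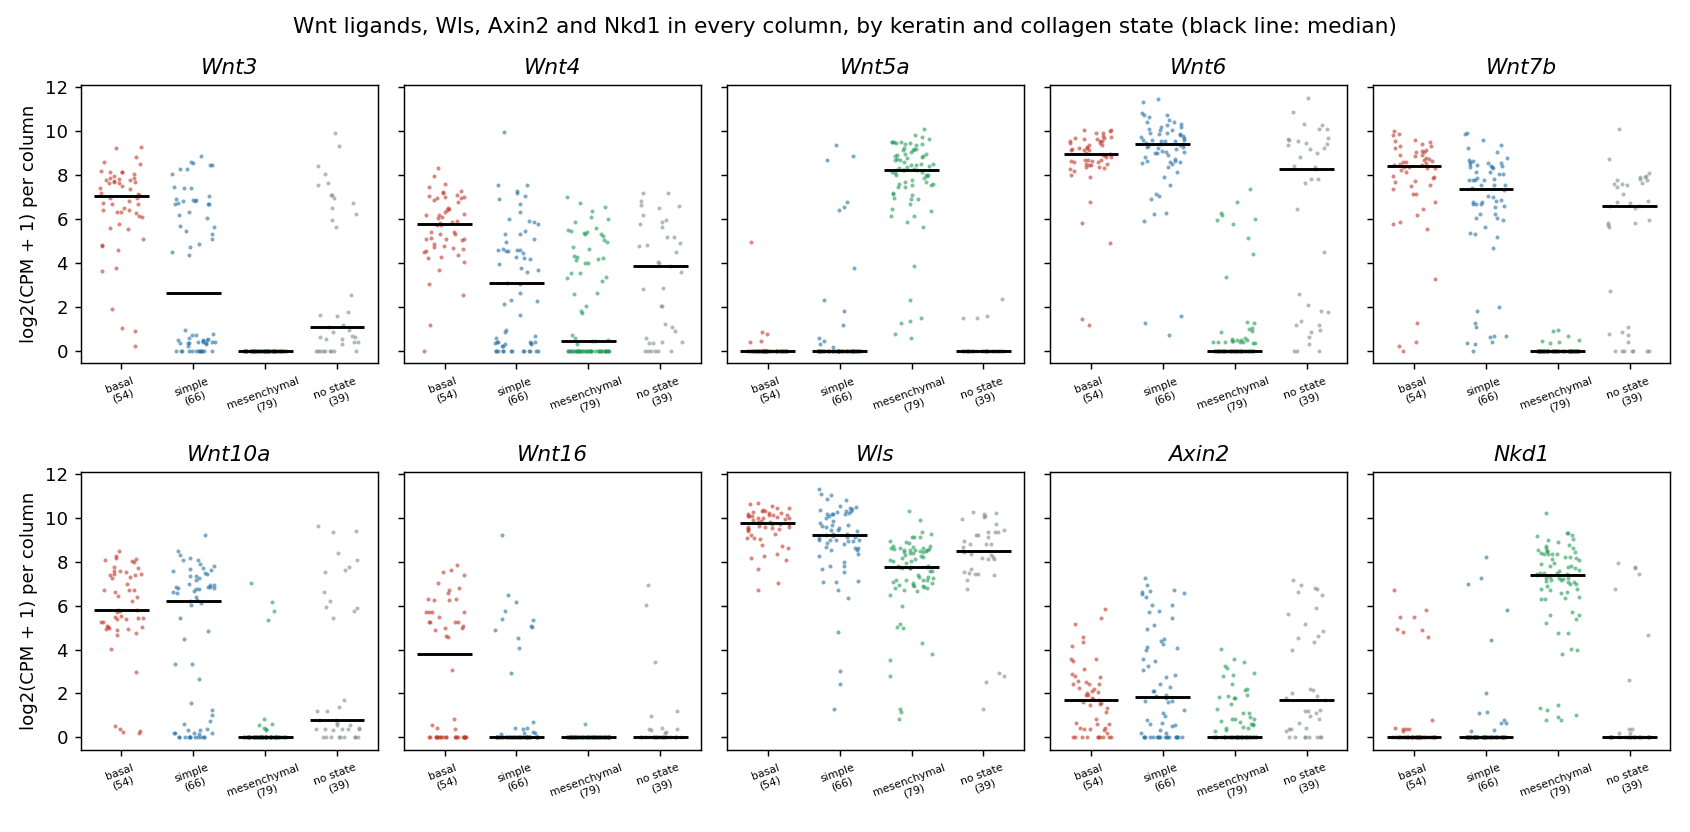
Level of each of the 10 genes in every column, as log2(CPM + 1), for 54 basal, 66 simple, 79 mesenchymal and 39 columns with no state. Each point is 1 column (1 cell) and the black line is the median, and the column that is both simple and mesenchymal is drawn with both. Wnt3 lies at 0 in every mesenchymal column, whereas Wnt5a and Nkd1 are high there and mostly at 0 elsewhere.

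Of the 7 ligands, Wnt5a alone was higher in mesenchymal columns. Wnt5a, on chromosome 14 from 28504750 to 28527448, had a median of 301.6 CPM in mesenchymal columns (0.470 to 1105), and 73 of 79 were at 10 CPM or more, which is 92.4% (84.2% to 97.2%). In basal columns its median was 0 and 1 of 54 reached 10 CPM, at 30.3. That column held 93.6% of all Wnt5a counts of the basal state. The sums were 335.5 CPM (333.9 to 337.2) in mesenchymal and 0.406 CPM (0.350 to 0.469) in basal columns, 826-fold apart.

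Wls was present in all states. Wls, on chromosome 3 from 159839672 to 159938664, was at 10 CPM or more in 54 of 54 basal, 63 of 66 simple and 75 of 79 mesenchymal columns. Its medians were 868.8 CPM (104.4 to 1648), 588.7 CPM (1.45 to 2535) and 219.7 CPM (0.795 to 1255) in the same order. The 3 ranges overlapped widely. In sum, 873.6 CPM in basal columns was 3.33-fold above the 262.7 CPM in mesenchymal columns, whereas 694.4 CPM in simple columns differed from the basal value by less than 2-fold.

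The feedback genes went opposite ways. Nkd1, on chromosome 8 from 88521354 to 88594884, encodes an inhibitor that binds Dishevelled. It had a median of 169.2 CPM in mesenchymal columns (0.705 to 1180), with 72 of 79 at 10 CPM or more, which is 91.1% (82.6% to 96.4%). In basal columns the median was 0, 8 of 54 reached 10 CPM, and 1 column held 45.2% of the counts. The sums were 209.1 CPM (207.8 to 210.4) and 7.76 CPM (7.51 to 8.02), 26.9-fold apart. Axin2, on chromosome 11 from 108920349 to 108950783, encodes a scaffold of the complex that degrades beta-catenin. Its level was low in both states. Basal columns had a median of 2.29 CPM (0 to 56.3) with 9 of 54 at 10 CPM or more, and mesenchymal columns a median of 0 (0 to 15.2) with 2 of 79. The sums of 5.52 CPM (5.31 to 5.74) and 1.33 CPM (1.23 to 1.44) differed 4.14-fold, with Axin2 lower where Nkd1 was higher. With the state thresholds halved the log2 ratio of Axin2 was -0.97, within 2-fold. Within the states, Axin2 and Nkd1 had a Pearson r of log2(CPM + 1) of 0.17 in 54 basal, -0.003 in 66 simple and 0.08 in 79 mesenchymal columns. The Spearman rho was 0.09, 0.16 and 0.26 in the same order. In each state 1 of the 2 genes had a median of 0, so these values cannot tell whether the genes go together. Of the mesenchymal columns, 2 had Axin2 and 72 had Nkd1 at 10 CPM or more. In 1 column both were, where 2 was the most possible.

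The sequences before the start sites of these opposed feedback genes are shown because TCF/LEF sites are the usual link between beta-catenin and its target genes. They are 250 bases on the plus strand from RefSeq on GRCm38.p6 (mm10), with the GC box GGGCGG in capitals on either strand. The Axin2 stretch is chr11:108920099-108920348 and the Nkd1 stretch is chr8:88527383-88527632, the latter inside the annotated Nkd1 gene because RefSeq places its start further downstream.
Axin2: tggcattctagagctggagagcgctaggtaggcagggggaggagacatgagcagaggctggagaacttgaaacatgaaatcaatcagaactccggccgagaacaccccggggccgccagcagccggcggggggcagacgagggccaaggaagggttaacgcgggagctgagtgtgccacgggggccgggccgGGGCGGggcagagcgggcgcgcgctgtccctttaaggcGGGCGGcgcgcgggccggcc
Nkd1: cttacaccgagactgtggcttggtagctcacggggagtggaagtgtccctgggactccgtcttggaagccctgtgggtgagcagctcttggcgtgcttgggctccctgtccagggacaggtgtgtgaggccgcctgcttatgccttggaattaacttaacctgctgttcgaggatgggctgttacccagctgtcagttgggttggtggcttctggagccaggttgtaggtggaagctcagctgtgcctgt
The Axin2 stretch has 69.2% G and C, 24 CG pairs and 2 GC boxes, and the Nkd1 stretch has 58.4%, 6 CG pairs and no GC box. Among 32851 RefSeq promoters of 250 bases, 32.7% hold GGGCGG on either strand. Neither CTTTGAT nor CTTTGAA, cores of TCF/LEF sites, stands in the 2 stretches or in those of Wnt3, Wnt4, Wnt6, Wnt16 and Wls on either strand, and 3.21% and 4.46% of all promoters hold them. These letters describe a short window and not the binding of a factor. No stretch was at hand for Wnt5a, Wnt7b and Wnt10a.

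Simple columns have Krt8 and Krt18 in place of Krt5 and Krt14. Of the 10 genes, 2 were higher in simple than in basal columns, beside 18.6% of the 16673 genes compared, and 1 was lower, beside 13.2%. The higher genes were Wnt5a and Axin2, and the lower gene was Wnt3. By the medians of the columns 0 were higher and 4 lower, namely Wnt3, Wnt4, Wnt7b and Wnt16. The shares of all genes given above are for sums, and none is given for medians, so these 2 counts have no background. The median log2 ratio was -0.26 for the 10 genes and 0.05 for all genes compared.

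Wnt3 was present in fewer simple columns. It reached 10 CPM in 33 of 66, which is 50% (37.4% to 62.6%), with a median of 10.3 CPM and a maximum of 472.7. The sum of 71.2 CPM (70.5 to 71.9) was 2.33-fold below that of basal columns, with overlapping ranges. The log2 ratio of -1.21 moved within 2-fold with size factors (-0.99) and with doubled state thresholds (-0.97). Wnt6 was at 10 CPM or more in 63 of 66 simple columns with a median of 676.5 CPM (0.644 to 2839), and its sum of 764.8 CPM was 1.39-fold that of basal columns. Wnt7b was at 10 CPM or more in 55 of 66 (median 163.3 CPM, 0 to 961.6) and Wnt10a in 39 of 66 (median 74 CPM, 0 to 588.9), with sums of 223.2 and 94.2 CPM. None of these 3 sums was 2-fold from the basal value.

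For Wnt4 and Wnt16 in simple columns, a single column decided the sum. Wnt4 was at 10 CPM or more in 32 of 66 columns, with a median of 7.34 CPM, and the highest column, at 997.8 CPM, held 41% of the counts. Wnt16 was at 10 CPM or more in 11 of 66 columns, with a median of 0, and 1 column at 594.7 CPM held 74.9% of the counts. The summed log2 ratios to basal columns were -0.84 for Wnt4 and -0.67 for Wnt16. Without the highest column of each state they were -1.47 and -2.32, both lower by more than 2-fold.

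Wnt5a and Axin2 were raised in a minority of simple columns. Wnt5a was at 10 CPM or more in 7 of 66, which is 10.6% (4.37% to 20.6%), with a median of 0 and a maximum of 669.1 CPM. Its sum of 19.7 CPM (19.4 to 20.1) was 48.6-fold that of basal columns. Of the 7 columns, 6 also had another of the ligands at 10 CPM or more. Axin2 reached 10 CPM in 22 of 66 simple columns, which is 33.3% (22.2% to 46%), and in 16.7% (7.91% to 29.3%) of basal columns. These intervals overlapped. The median of 2.57 CPM was close to the 2.29 CPM of basal columns, and the maximum was 152.2. The sum of 19.7 CPM (19.3 to 20) was 3.56-fold that of basal columns. By the medians of the columns the log2 ratios were 0 for Wnt5a and 0.12 for Axin2.

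The sum of Axin2 in the simple state depended on columns with collagen, while its median hardly did. This split was chosen after values were seen. The 33 simple columns with Col1a1 or Col3a1 had 32.6 CPM of Axin2 in sum and a median of 2.64, and the 33 without had 9.21 CPM in sum and a median of 2.15. At 10 CPM or more were 13 and 9 columns. Without the columns with collagen, the log2 ratio of Axin2 to basal columns was 0.65, within 2-fold, and that of Wnt5a was 3.38. Whether these columns hold material of another cell was not tested. In sums over all simple and all basal columns, the mesenchymal markers Dcn (964.9 and 686.3 CPM), Col1a2 (66 and 7.91 CPM) and Lum (43.8 and 0.744 CPM) were higher in the simple state. Pdgfra, whose product was used to sort cells out, was 0.0353 and 0.333 CPM, and Twist2 was 0.0212 CPM and 0.

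Against simple columns, 8 genes were lower in mesenchymal columns, beside 23.7% of the 17259 genes compared, and 2 were higher, beside 18.8%. This comparison and the first share the mesenchymal columns. Wnt6 was 83.7-fold lower, Axin2 14.7-fold lower and Wls 2.64-fold lower in mesenchymal columns, whereas Wnt5a was 17-fold and Nkd1 27.2-fold higher. Nkd1 had sums of 7.69 CPM in simple and 7.76 CPM in basal columns, but with doubled state thresholds its log2 ratio was -1.39, lower by more than 2-fold in simple columns. In simple columns it was at 10 CPM or more in 5 of 66, and 1 column held 46.5% of its counts.

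**Figure D2:**
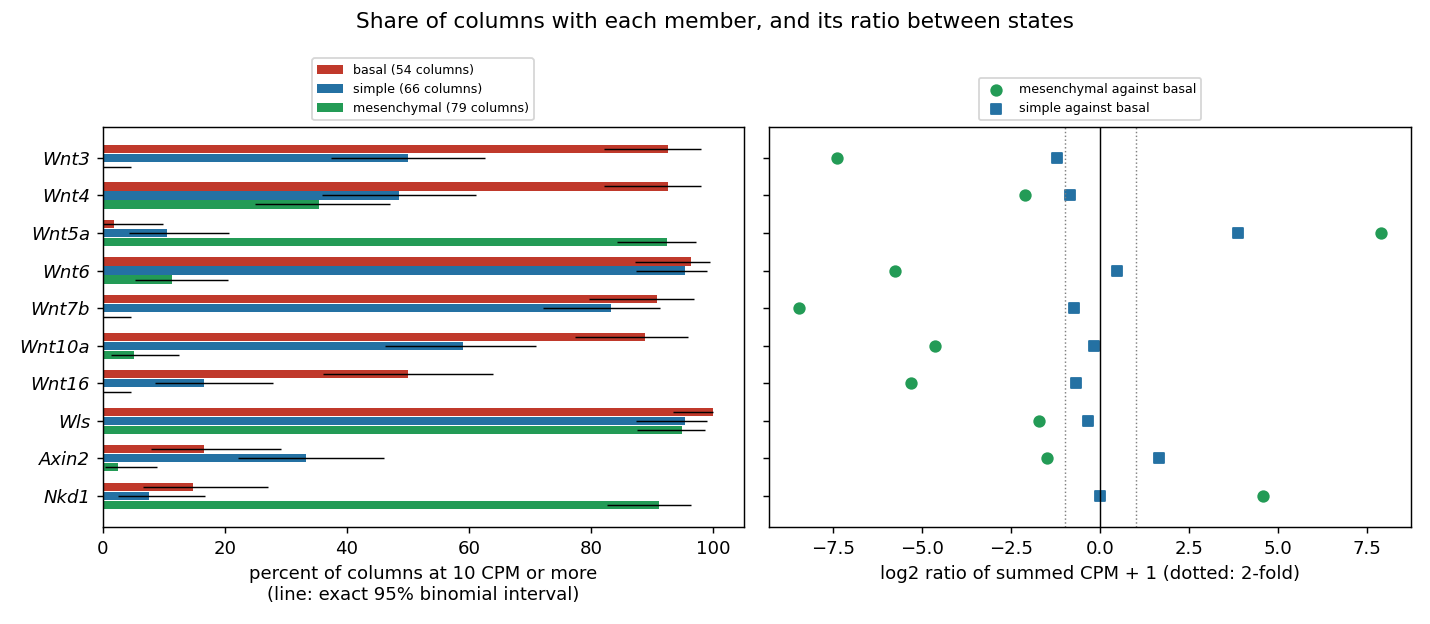
Left, percent of columns at 10 CPM or more for each gene in 54 basal, 66 simple and 79 mesenchymal columns, with exact 95% binomial intervals as lines. Right, log2 ratio of summed CPM + 1 of mesenchymal and of simple columns to basal columns, with 2-fold marked by dotted lines. Wls is at 94.9% to 100% in every state, while Wnt5a and Nkd1 lie alone on the right in the mesenchymal comparison.

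Per length of exon, the ligand mix differed by state. Summed over the 7 ligands, basal columns had 450.8 CPM per kb and simple columns 473.4, against 52.3 in mesenchymal columns and 342.1 in columns with no state. Wnt6 made up 55.9% of this sum in basal and 73.7% in simple columns. Wnt7b followed with 16.7% and 9.63%, and Wnt3 gave 12% and 4.89%. In basal columns the order per kb was Wnt6, Wnt7b, Wnt3, Wnt10a, Wnt4 and Wnt16, with 251.8, 75.3, 54, 43.3, 17.4 and 8.84 CPM per kb. Over columns the ranges of these neighbours overlapped. In mesenchymal columns Wnt5a gave 82.0%, at 42.9 CPM per kb, and Wnt6 and Wnt4 gave 7.97% and 7.43%. Single basal columns carried many ligands at the same time. Of the 6 ligands other than Wnt5a, a median of 5 (2 to 6) was at 10 CPM or more in a basal column, 4 (0 to 6) in a simple and 0 (0 to 2) in a mesenchymal column.

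**Figure D3:**
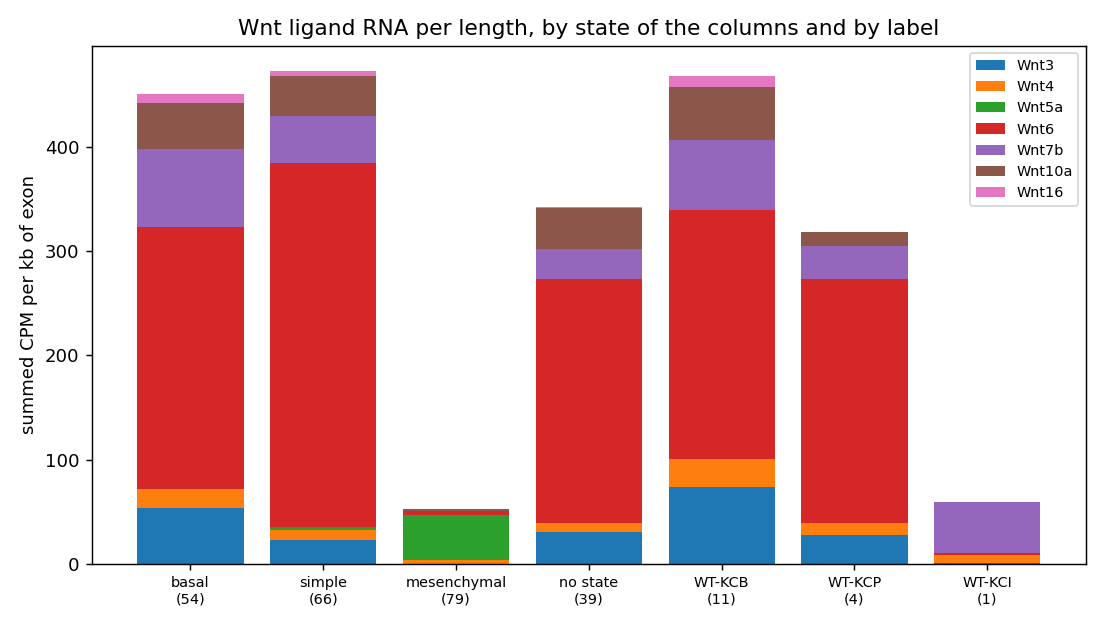
Summed CPM per kb of exon of the 7 Wnt ligands, stacked, by state of the columns and by label of the 16 cells (number of columns or cells in brackets). WT-KCB and WT-KCP cells are part of the basal columns and the WT-KCI cell of those with no state. Wnt6 is the tallest segment except in mesenchymal columns, where it is Wnt5a, and in the WT-KCI cell, where it is Wnt7b.

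Within WT epidermis, the 4 WT-KCP cells were compared with the 11 WT-KCB cells of the same embryo. WT-KCP cells are the Krt17-high cells that the authors assign to the periderm, a transient outer layer. Of the 4 periderm markers, Krt17 was 1715 to 3902 CPM in these cells, Krt6a at most 0.668 CPM, and Krt4 and Gabrp were at 0. Wnt5a was at 0 in all 16 cells. Of the other 9 genes, 7 were lower in WT-KCP than in WT-KCB cells, beside 21.9% of the 15387 genes compared, and 1 was higher, beside 17.5%. The median log2 ratio of the 9 genes was -1.20, and that of all genes compared was -0.06. Ranges of the cells overlapped for every gene.

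Most ligands and their carrier were lower in WT-KCP cells. Wnt3 was 84, 139.4, 26.3 and 103.1 CPM in WT-KCP cells 1 to 4, and 2.67 to 597.3 CPM in WT-KCB cells with a median of 217.1. The summed level was 2.72-fold lower in WT-KCP cells. Wnt10a was 53.1, 6.84, 40.5 and 31.2 CPM in WT-KCP cells and 24.2 to 306.8 CPM in WT-KCB cells, 3.74-fold lower in sum. Wls was 748.5, 271.8, 426.5 and 390.8 CPM in WT-KCP cells and 329.1 to 1648 CPM in WT-KCB cells, 2.30-fold lower. A single WT-KCB cell, number 7, had less Wls than 3 of the 4 WT-KCP cells. Wnt16 was at 0 in the 4 WT-KCP cells. It had at least 1 count in 8 of 11 WT-KCB cells, with up to 233.9 CPM, and its sum there was at least 462-fold higher than 3 counts in the WT-KCP cells would give. Wnt6 stood apart from the other ligands, with 975.3, 238.4, 453.6 and 403.8 CPM in WT-KCP cells and sums of 513.6 and 524.6 CPM that differed 1.02-fold.

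For Wnt4 and Wnt7b the 2-fold call, but not the direction, rested on single cells. Wnt4 was 121.8, 33.4, 31.4 and 23.6 CPM in WT-KCP cells, with a summed log2 ratio of -1.10. It fell inside 2-fold when any of WT-KCB cells 3 and 9 or WT-KCP cells 2, 3 and 4 was left out, to -0.82 without WT-KCB cell 9. Wnt7b was 284.7, 229.2, 107.7 and 0.315 CPM in WT-KCP cells, with a summed log2 ratio of -1.08. It fell inside 2-fold without any of WT-KCB cells 3 and 8 or WT-KCP cells 3 and 4, to -0.73 without WT-KCP cell 4. Without WT-KCP cell 1 the log2 ratios were -1.87 for Wnt4 and -1.50 for Wnt7b. Both genes stayed lower in WT-KCP cells whichever cell was left out.

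The feedback genes again differed from each other. Axin2 was 2.04, 0, 42.3 and 23.2 CPM in WT-KCP cells, and 0 to 19.2 CPM in WT-KCB cells with a median of 3.81. Hence WT-KCP cells 3 and 4 exceeded every WT-KCB cell while WT-KCP cells 1 and 2 did not. The sums of 18.5 and 6.08 CPM differed 3.05-fold. Without WT-KCP cell 3 the log2 ratio fell from 1.46 to 0.34. Nkd1 had 2 counts in the WT-KCP cells, all in cell 1, and 0 in the other 3 cells. It was present in 4 of 11 WT-KCB cells, at 55.3, 23.1, 29.4 and 43.5 CPM in cells 2, 6, 10 and 11, and at 0 in the other 7. The ratio of the sums was 0.00521 (0.00063 to 0.0189). The medians of both groups were 0.

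The WT-KCI cell, with 29639.5 CPM over the 4 suprabasal markers, had its own pattern. It kept Wnt7b at 241.1 CPM, Wls at 327 CPM and Wnt4 at 35.4 CPM, all within the range of WT-KCB cells or, for Wls, just below it. Wnt6 at 2.43 CPM, Wnt3 at 1.21 CPM and Wnt10a at 0.485 CPM were below every WT-KCB cell. Wnt16 and Nkd1 had no count. Axin2 at 123.2 CPM was above each of the other 15 cells. As 1 cell of 1 embryo, it has no replicate.

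WT-KCB cell 2 was at an extreme for 4 of the 10 genes. It had the most Wnt3, at 597.3 CPM, and the most Nkd1, at 55.3 CPM, with the least Wnt4, at 4.83 CPM, and the least Wnt6, at 28.7 CPM, of the WT-KCB cells. The same cell had 253 CPM of Shh, 105.6 CPM of Dkk4 and 676.4 CPM of Edar, genes of the hair placode, where the other WT-KCB cells had no Shh or Dkk4. Bmp2, Lhx2 and Fgf20 were also highest in this cell. Sostdc1, on the same marker list, went the other way, at 0.763 CPM here and 100.2 to 1052 CPM in the other WT-KCB cells. Edar was also 94.3 CPM in WT-KCB cell 6 and 99.7 and 131 CPM in WT-KCP cells 3 and 4. Shh was 31.7 CPM in WT-KCP cell 4. The Axin2 of WT-KCB cell 2 was 3.81 CPM, the median of the WT-KCB cells. Whether its Wnt levels go with the placode genes was not tested.

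**Figure D4:**
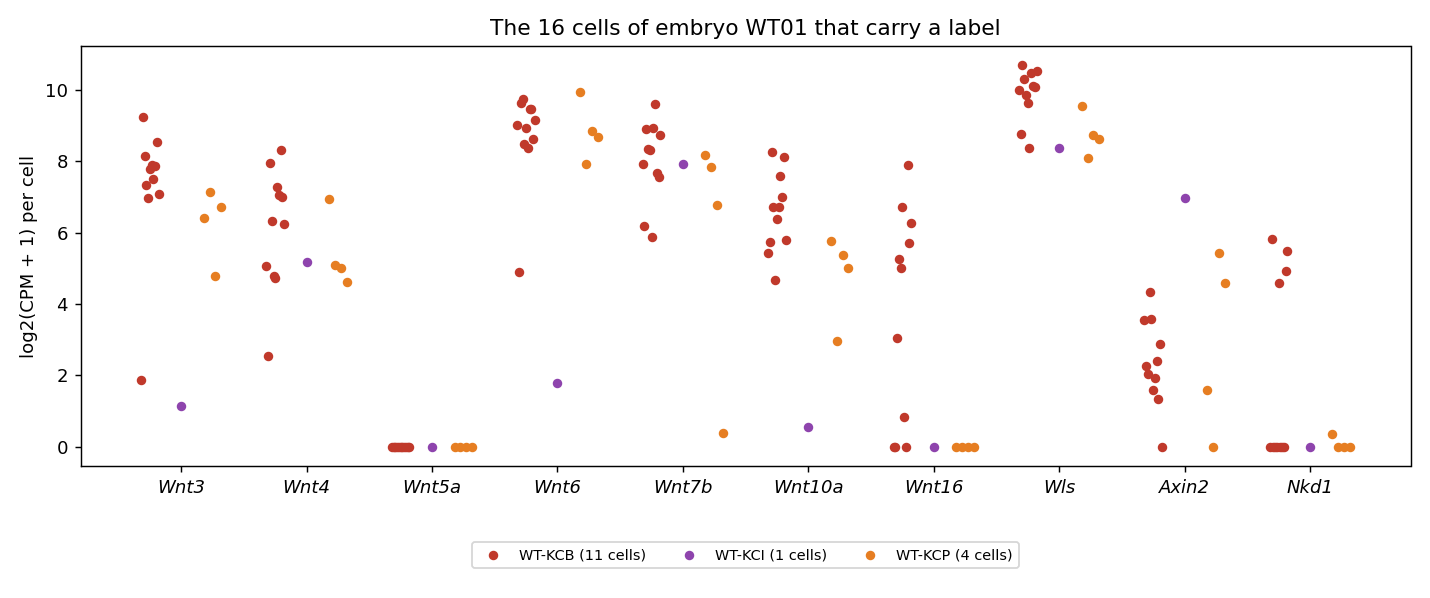
Level of the 10 genes, as log2(CPM + 1), in the 11 WT-KCB, 1 WT-KCI and 4 WT-KCP cells of embryo WT01. Each point is 1 cell. Wnt5a is at 0 throughout, Wnt16 is at 0 in all 4 WT-KCP cells, and the WT-KCI cell has the highest Axin2.

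The other genes of the pathway were read from a list of 71, all of which matched the table. In mesenchymal against basal columns, 65 of them reached 1 CPM in either state, and 27 were higher, beside 19.6% of all genes compared, and 15 lower, beside 18.8%. Their median log2 ratio was 0.21. Of 11 secreted inhibitors, 9 were higher and 2, Sostdc1 and Dkk4, lower in mesenchymal columns. Sfrp2, which binds Wnt proteins, was 258.7 CPM in mesenchymal and 3.63 CPM in basal columns, and Dkk2, which binds Lrp co-receptors, was 42.7 CPM and 0. Sostdc1, which also binds Lrp co-receptors, was 40.7 CPM in mesenchymal, 458.3 CPM in basal and 353.4 CPM in simple columns. Among the other ligands 3 were higher and 4 lower of 9. Wnt11 was 95 CPM in mesenchymal columns and 0 in basal columns, whereas Wnt3a and Wnt7a were 82 and 78.4 CPM in basal columns and 0 in mesenchymal columns. Wnt3a was also nearly absent from simple columns, at 0.0705 CPM.

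Among receptors, 14 were compared between mesenchymal and basal columns. In mesenchymal columns 7 were higher, beside 19.6% of all genes compared, and 3 lower, beside 18.8%. Ror2, a receptor of Wnt5a, was 204.6 CPM in mesenchymal, 17.1 CPM in simple and 0.0216 CPM in basal columns. Fzd10 was 192.6 CPM in basal columns, 11.6 CPM in mesenchymal and 2.29 CPM in simple columns, and Fzd6 was 229.4, 12.1 and 39.8 CPM in the same order. In the R-spondin axis, whose ligands keep Wnt receptors at the surface, Rspo1 and Rspo3 were 365.6 and 53 CPM in mesenchymal columns and 1.90 and 1.41 CPM in basal columns. Rnf43, a ligase that removes the receptors, was 59 CPM in basal and 97.1 CPM in simple columns and 0.0250 CPM in mesenchymal columns.

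Of 9 genes of the intracellular relay, 0 were higher and 0 lower in mesenchymal than in basal columns. The shares of all genes compared were 19.6% and 18.8%. Against simple columns 2 of the 9, Apc and Csnk1a1, were lower in mesenchymal columns, beside 23.7% of all genes compared. Ctnnb1, which encodes beta-catenin, was 1169 CPM in basal, 573.7 in simple and 584 CPM in mesenchymal columns. The mesenchymal level was just within 2-fold of the basal level, and the simple level, with a log2 ratio of -1.03, just outside it. Porcn, which attaches the lipid to Wnt proteins, was 11.7, 10.1 and 8.64 CPM in basal, simple and mesenchymal columns. Lef1, a nuclear partner of beta-catenin, was 354.7, 182.2 and 21.5 CPM in the same order. Of 6 further target genes, 3 were higher and 1 lower in mesenchymal than in basal columns, beside 19.6% and 18.8% of all genes compared. Nkd2 was 106.9 CPM in mesenchymal and 3.84 CPM in basal columns, and Sp5 was 40.4 and 1.67 CPM. Ccnd1 was 129.4 CPM in mesenchymal, 43.1 in basal and 3.07 CPM in simple columns. The lower gene, Tnfrsf19, was 97.2 CPM in mesenchymal and 427.6 CPM in basal columns, and Myc and Bambi were within 2-fold. These 3 genes were named after their values were seen.

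In simple against basal columns, 59 genes of the list were compared, and 7 were higher, beside 18.6% of all genes compared, and 17 lower, beside 13.2%. Their median log2 ratio was -0.15. Sfrp5 was 10.9 CPM in simple and 0.00432 CPM in basal columns, and Tcf7l1 was 157.5 and 65.1 CPM. In WT-KCP against WT-KCB cells, 53 genes were compared, and 8 were higher, beside 17.5% of all genes compared, and 17 lower, beside 21.9%. Their median was -0.08.

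**Figure D5:**
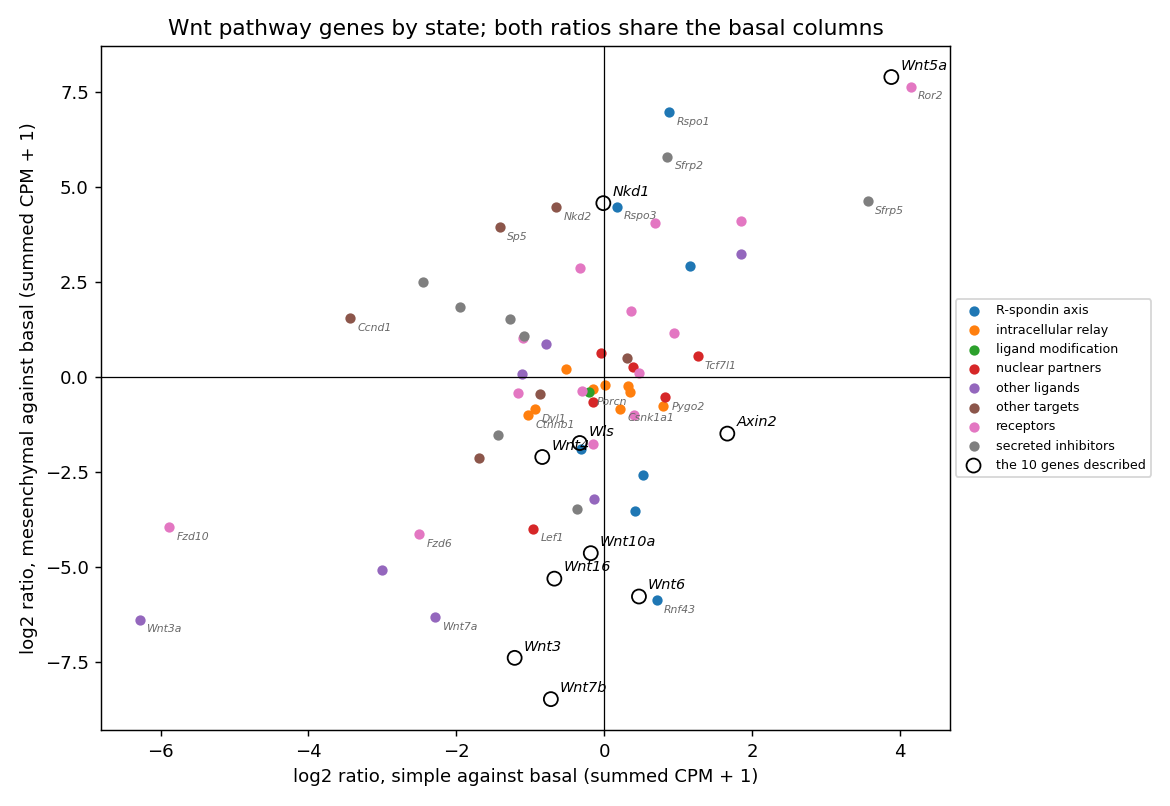
Log2 ratio of summed CPM + 1 in simple (x axis) and in mesenchymal columns (y axis), each against basal columns, for 58 genes of the pathway list compared in both, coloured by role, and for the 10 genes as open circles. Both axes share the basal columns. Wnt5a lies at the upper right, Nkd1 high on the y axis near 0 on the x axis, and Wnt3 and Wnt7b at the bottom.

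The genes with the most similar pattern were found by the Pearson r of log2(CPM + 1) over 237 columns, among 14639 genes with a count in at least 20% of them. These columns share the mix of states, so r mostly reads state. Wnt5a was nearest to Col1a1 (r of 0.91), and Nkd1 to Pmp22 (0.84), Col6a2 (0.83) and Cdh11 (0.83). Wnt6 was nearest to Epcam (0.86), Wnt7b to Pkp3 (0.85) and Cdh1 (0.80), and Wnt3 to Gjb6 (0.76) and Trp63 (0.74). Wnt10a was nearest to its neighbour Wnt6 (0.72). Within the states that pair had an r of 0.61 over 54 basal and 0.46 over 66 simple columns. The pattern of Wnt16 was nearest to Krt15 (0.56), that of Wls to Ddr1 (0.57), that of Wnt4 to Lmo1 (0.48) and that of Axin2 to Wwc1 (0.45), the lowest of the 10. In mesenchymal columns Nkd1 and Lef1 had an r of 0.45, but it was -0.12 in basal and -0.04 in simple columns. For Axin2 and Lef1 it was 0.15 in basal, 0.35 in simple and 0.10 in mesenchymal columns.

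Exons of 3 of the genes share bases with a gene on the other strand: Wnt5a with Gm2670, Wnt7b with AU022754 and Axin2 with Gm11670. Whether counting used the strand was not given in the sources used here, so reads of the pairs cannot be told apart. The partner had 2.35 CPM beside Wnt5a in mesenchymal columns and 6.03 CPM beside Wnt7b in basal columns. It had 12.9 CPM beside the 123.2 CPM of Axin2 in the WT-KCI cell.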

How the data were processed

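SMART-Seq HT cDNA of sorted single cells was sequenced by the authors with paired reads of 150 bp, aligned to mm10 with HISAT2 and counted with featureCounts on Ensembl release 97. What the authors deposited are estimated counts for each gene and column, without normalization. Use of the strand and of reads with several alignments was not given in the sources used here. Of the nonzero values, 23.2% carried a fraction, and all were rounded to whole numbers. Columns are named by sequencing run. A supplementary list of the study that pairs runs with cells ties 16 columns to a labelled cell, and 221 columns were used without a sample.

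Counts were divided by the column total to give CPM. Columns of a state or label were summed. A gene was compared when it had at least 1 CPM in either group, and log2 ratios used a pseudocount of 1 CPM. Fold differences are ratios of summed CPM without it. Cells are not replicates, so they gave no test and no SD. A count of 0 was given the limit of 3 counts. Doublets were not called. The comparison was tested on simulated data. The 10 members and all gene and marker lists were chosen with earlier results of these data known. Named genes are the members, up to 3 pathway genes per role with the largest ratio to basal columns at 10 CPM or more in a state, the 3 genes most like each member, and the markers, of which 55 of 56 matched (Ctgf did not). Some correlations and the splits by collagen and by Krt17, Krt1 or Krt10 were chosen after values were seen. Alternatives were fractional counts, means or medians of columns, size factors, totals without 3 rRNA-rich genes, other pseudocounts and minimums, other state thresholds, and columns or cells left out. Coordinates are those of the GENCODE annotation on GRCm38. Computation used Python 3.11.15 (matplotlib 3.10.9, scipy 1.17.1, pandas 2.3.3 and numpy 2.4.6).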

Additional observations from a re-analysis of the deposited data

Results flagged for a closer look

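In the 4 WT-KCP cells, Wnt4 had 1 cell far from the rest, cell 1 with 121.8 CPM, where the other 3 had 23.6 to 33.4 CPM. Nkd1 had 0.292 CPM in WT-KCP cell 1, from 2 counts, and 0 in the other 3. The gap to the nearest cell was 0.901 of the range of the 4 cells for Wnt4 and 1 for Nkd1. The limit used marks about 1 in 20 groups of normally distributed values by chance. CPM of single cells need not be so distributed, and all genes that varied were looked at. That rate therefore cannot be given for Wnt4. It does not hold for Nkd1 either, whose gap is 1 as soon as a single cell has any count.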

How the results depend on the processing

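The counts of genes in mesenchymal against basal columns were 2 higher under all 17 alternatives and 7 to 8 lower. In simple against basal columns, 1 gene was lower and 2 higher. The lower count was 2 with the mean of the columns' CPM, 4 with their median, 0 with size factors, 3 without the largest column of each gene, and 3 without basal columns that had Krt17, Krt1 or Krt10. The higher count was 0 with the median of the columns and 1 without columns that had collagens. Leaving out each WT-KCB or WT-KCP cell in turn gave 5 to 7 genes lower and 0 to 1 higher in WT-KCP cells, the 0 without WT-KCP cell 3. The causes were not tested. Of 547 values of single genes under these alternatives, 316 stayed inside the Poisson interval of the main log2 ratio and 231 moved outside it. These intervals are too narrow, as said above. Of the 547 values, 27 crossed 2-fold, and 0 called values changed sign. By the medians of the columns, Wnt5a in simple against basal columns and Nkd1 in WT-KCP against WT-KCB cells fell to 0, which was not counted as a change of sign. Size factors moved the median of all genes by 0.37 in mesenchymal and 0.22 in simple against basal columns on the log2 scale. The alternatives that left out the column with both states, the columns with collagens or those with Krt17, Krt1 or Krt10 were chosen after seeing the data. No column had under 1000000 counts, so that limit changed nothing. No paired analysis was possible because the groups are cells of 1 embryo or pools of columns and no result comes from a test.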

Other observations

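The 39 columns with no state, which include 20 with both Krt5 and Krt8 at 100 CPM or more, had 24.2 CPM of Axin2 in sum (23.7 to 24.8) with 14 columns at 10 CPM or more and a maximum of 144.5. Nkd1 was 18.2 CPM in sum, with 6 of 39 columns at 10 CPM or more. Wnt5a reached 10 CPM in none of them. Wnt6 was at 10 CPM or more in 25, Wnt7b in 26, and Wnt3 and Wnt10a in 14 each. Wnt16 had 4.64 CPM in sum, of which 1 column gave 55.5%.

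The 15 basal columns with Krt17, Krt1 or Krt10 at 300 CPM or more had 6.23 CPM of Wnt16 in sum, with 3 at 10 CPM or more, and the other 39 had 49.2 CPM, with 24 at 10 CPM or more. Wnt10a was 45.7 CPM in the 15 and 127 CPM in the 39. Axin2 was 6.33 and 5.26 CPM. The split was chosen after values were seen and contains the 4 WT-KCP cells.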
